A study of Homo sapiens with 12 samples.

Results

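The 10 genes examined are HAND2, GATA2, GATA3, ISL1, TBX2, PHOX2A, TFAP2B, LMO1, LMO3 and INSM1, which belong to the adrenergic transcription factor circuit of neuroblastoma. They were taken by symbol from a list with no filter on their values, but the list was chosen with earlier results of these data known. Every probe set of the array that names exactly 1 gene, that gene being 1 of the 10, was used, which gave 29 of the 44988 probe sets naming 1 gene and 10 of 18132 genes. GATA2 had 6 probe sets, LMO3 had 9, GATA3 and TFAP2B had 3 each, ISL1 and HAND2 had 2 each, and PHOX2A, TBX2, INSM1 and LMO1 had 1 each.

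Neuroblastoma arises from the sympathoadrenal lineage of the neural crest, and cells in the adrenergic state keep the transcription factors that specify noradrenergic neurons. These factors bind near their own genes and near one another's, so that each helps to keep the others expressed, and they switch on the genes for catecholamine synthesis. The regulatory regions of such circuits are rich in acetylated histones, to which the BET bromodomain proteins bind.

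RNA of Kelly and BE(2)-C, human neuroblastoma lines with an amplified MYCN oncogene, was measured on Affymetrix PrimeView arrays. The 4 groups of 3 arrays were Kelly with DMSO, the solvent control, Kelly with JQ1 at 1 µM, BE(2)-C with DMSO and BE(2)-C with JQ1 at 1 µM, and each treatment lasted 24 h. JQ1 is a thienotriazolodiazepine that displaces BET proteins from acetylated chromatin. The series was deposited under a title on the targeting of MYCN through BET inhibition, and the question asked here is how the adrenergic factors read under that treatment. The labels call the treatments triplicate and do not say whether these were separate cultures, so a p-value covers only the variation among the arrays, possibly technical. Each line stands for 1 tumour, and in bulk RNA fewer cells of a type and less RNA per cell cannot be told apart.

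Values below are log2 of the deposited RMA intensity in the brightest probe set of a gene, unless another probe set is named. Array medians lay between 5.94 and 6.07, and r between arrays within a group was 0.952 to 0.996. The number of arrays limits the precision: over all genes, JQ1 effects within a line had a median SE of 0.21. The signal of the added bacterial hybridization controls ranged from 9.94 to 13.65, and its 3 highest arrays were replicate 3 of Kelly with DMSO, replicate 3 of Kelly with JQ1 and replicate 1 of BE(2)-C with DMSO. The 3′ to 5′ log2 difference of GAPDH, a sign of RNA quality, was also highest on these arrays, at 0.45, 0.56 and 0.40, against a lowest value of 0.15. The array median is over all probe sets, while a marker was read from its brightest, and the share of all genes above it was not computed. PHOX2A, HAND2, GATA3 and ISL1, genes examined here, are among the 11 measured markers of an adrenergic neuroblast. All 11 lay above the array median in the mean of every group, with a summed level of 15.17 to 15.64. Of the measured markers of other cells, 2 to 3 of 8 for mesenchymal neuroblastoma cells, 1 to 2 of 4 for Schwann cells, 1 to 2 of 5 for haematopoietic cells, 1 to 2 of 6 for epithelial cells and 1 to 3 of 6 for fibroblasts lay above it.

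JQ1 did not move the 10 genes in a common direction. In Kelly TFAP2B, LMO1 and LMO3 were 2.18-fold, 2.92-fold and 3.75-fold lower with JQ1, 3 calls of 10, and none passed as higher. TFAP2B in BE(2)-C was 2.12-fold lower, while PHOX2A and GATA3 were 1.78-fold and 1.50-fold higher, 3 calls of 10. At an adjusted p under 0.05 limma called 6.5% of all genes in Kelly, 1.76% higher and 4.73% lower, and 4.69% in BE(2)-C, 2.18% higher and 2.51% lower. In the average of both lines PHOX2A passed as higher and TFAP2B, LMO1 and LMO3 as lower, 4 calls of 10 where 11.1% of all genes were called; the average shares all its arrays with the effects of the lines. The arrays of the treatments did not overlap in 5 of the 10 genes in Kelly, 2 higher and 3 lower, against 23.7% of all genes, and in 8 of the 10 in BE(2)-C, 4 higher and 4 lower, against 22.2%. The median log2 fold change of the 10 genes was -0.11 in Kelly, where that of all genes was 0.08, and -0.03 in BE(2)-C, where that of all genes was -0.01.

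**Figure D1:**
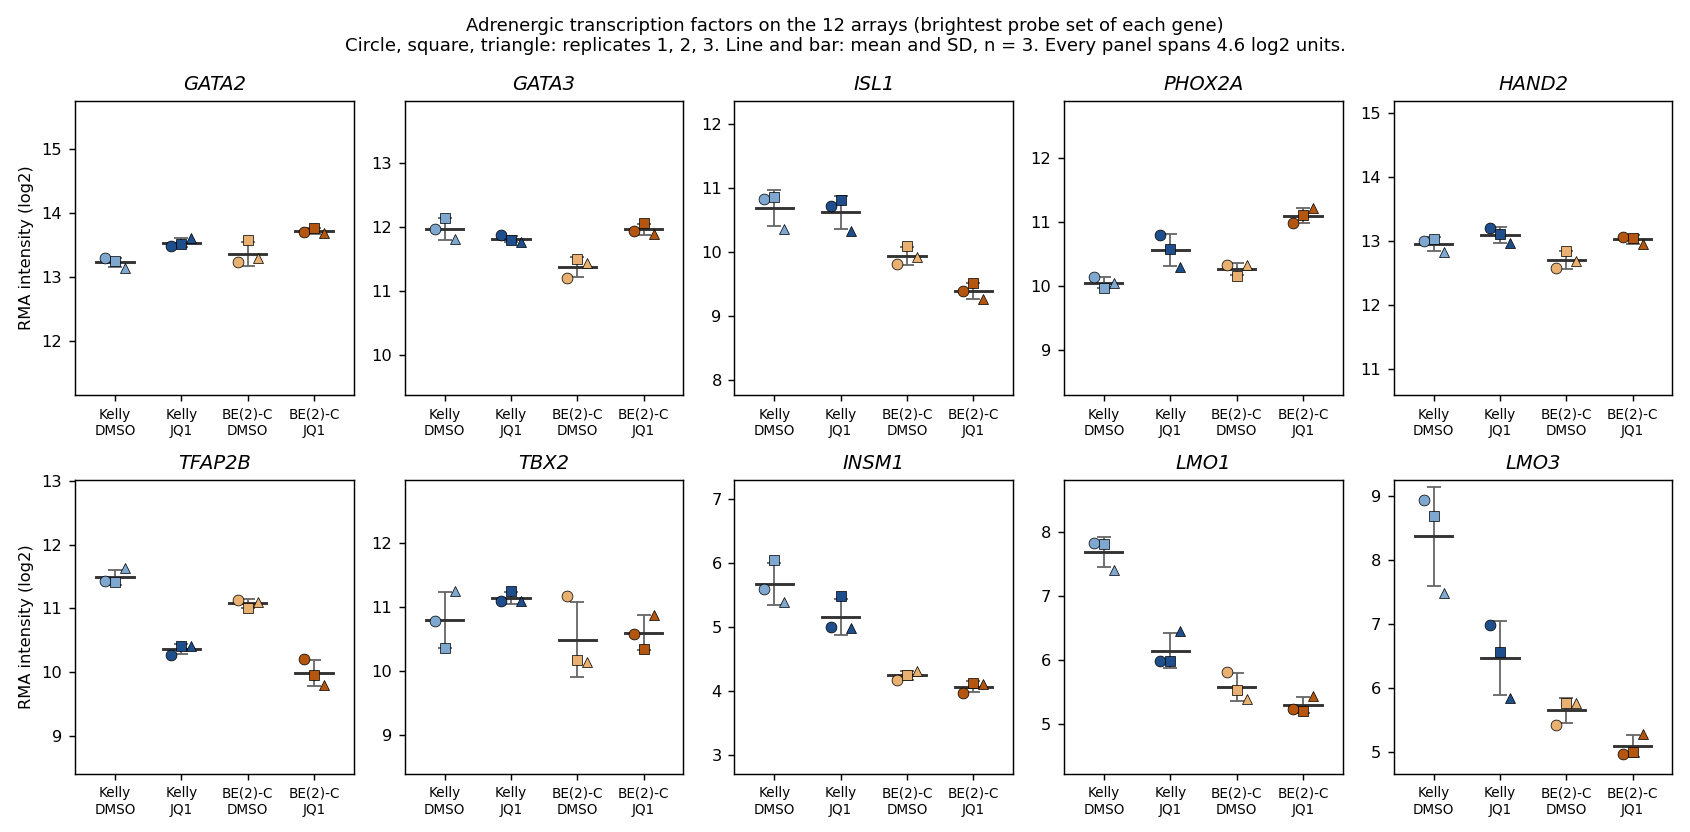
RMA intensity (log2, vertical axis) of the 10 genes in the 4 groups (horizontal axis). Each point is 1 array, lines and bars are the mean and SD of 3 arrays, and every panel spans the same number of log2 units. TFAP2B lies near 11 with DMSO and near 10 with JQ1 in both lines, and LMO1 and LMO3 are highest in Kelly with DMSO, at means of 7.69 and 8.37.

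Among the homeodomain, zinc finger and helix-loop-helix factors that specify the noradrenergic fate, PHOX2A and GATA3 rose in BE(2)-C and none passed in Kelly. PHOX2A, a paired-like homeodomain factor that activates the genes of noradrenaline synthesis, read 10.14, 9.97 and 10.05 on the Kelly arrays with DMSO and 10.80, 10.58 and 10.30 with JQ1. On the BE(2)-C arrays it read 10.33, 10.16 and 10.32 with DMSO and 10.98, 11.11 and 11.22 with JQ1. Every JQ1 array lay above every DMSO array of its line. The rise of 0.83 on the log2 scale in BE(2)-C passed (SE 0.16, limma adjusted p = 0.00902), and the Kelly value of 0.51 did not (SE 0.16, limma adjusted p = 0.077). Averaged over the lines PHOX2A rose by 0.67 (SE 0.11, limma adjusted p = 0.00174), and the difference between the lines, 0.32 (SE 0.22), did not pass (limma adjusted p = 0.565). Without replicate 2 of BE(2)-C with DMSO the rise in BE(2)-C had a limma adjusted p of 0.0536. The value in Kelly passed under 5 of 22 alternatives, with limma adjusted p-values from 0.0122 to 0.242 over all 22. Among the 5 were the removal of replicate 3 of Kelly with JQ1, quantile normalization, an offset of 16 before log2 and the control signal as a covariate. Markers of another cell type moved beside the BE(2)-C values: of 6 measured fibroblast markers 2 fell there with JQ1, DCN from 6.84 to 4.97 (limma adjusted p = 0.000284) and LUM from 6.15 to 4.15 (limma adjusted p = 0.0172). The others did not pass there, with log2 fold changes of 0.06 for COL1A1, -0.07 for COL1A2, -0.38 for COL3A1 and -0.61 for PDGFRB. The summed level of all 6 was 8.90 to 9.07 with DMSO and 8.03 to 8.21 with JQ1. In Kelly the fibroblast marker PDGFRB fell (log2 fold change -0.73, limma adjusted p = 0.028). Of 8 mesenchymal markers VIM fell there (-1.36, limma adjusted p = 0.0239) and FN1 rose (0.82, limma adjusted p = 0.038). The epithelial marker KRT19 fell in Kelly (-1.37, limma adjusted p = 0.0013) and in BE(2)-C (-1.30, limma adjusted p = 0.00287). The part of these markers in the results of either line was not tested.

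GATA3, a zinc finger factor needed for the noradrenergic programme of sympathetic neurons, read 11.20, 11.50 and 11.43 on the BE(2)-C arrays with DMSO and 11.93, 12.06 and 11.89 with JQ1. Those groups did not overlap, and the rise was 0.58 (SE 0.15, limma adjusted p = 0.0425). In Kelly it read 11.97, 12.14 and 11.80 with DMSO and 11.87, 11.80 and 11.76 with JQ1, groups that overlap, with a log2 fold change of -0.16 (SE 0.15, limma adjusted p = 0.517). The difference between the lines, 0.74 (SE 0.21), did not pass (limma adjusted p = 0.179). The other probe sets of GATA3 had log2 fold changes of 0.74 and 0.89 in BE(2)-C, with limma adjusted p-values of 0.0184 and 0.0171 over all probe sets, where the brightest had 0.0536. The call in BE(2)-C was lost under 12 of 22 alternatives, among them the removal of any 1 of the 6 BE(2)-C arrays, replicate 1 of Kelly with DMSO or replicate 1 or 2 of Kelly with JQ1, with limma adjusted p-values from 0.00175 to 0.179 over the alternatives.

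Its paralogue GATA2, also known from blood stem cells, did not pass within either line. The Kelly arrays read 13.29, 13.24 and 13.15 with DMSO and 13.48, 13.52 and 13.62 with JQ1, and the BE(2)-C arrays 13.23, 13.58 and 13.29 with DMSO and 13.70, 13.77 and 13.68 with JQ1. The JQ1 arrays lay above the DMSO arrays in both lines without overlap. The log2 fold changes were 0.31 (SE 0.14, limma adjusted p = 0.215) in Kelly and 0.35 (SE 0.14, limma adjusted p = 0.225) in BE(2)-C. Their average, 0.33, had a limma adjusted p of 0.0506. That average passed under 7 of 21 alternatives, with limma adjusted p-values from 0.00868 to 0.123 over all 21. Among the 7 were quantile normalization (0.0362), the control signal as a covariate (0.0111) and the removal of replicate 2 of BE(2)-C with DMSO (0.0433). None of the 6 probe sets of GATA2 passed within a line with limma (1 in Kelly and 3 in BE(2)-C had an unadjusted p under 0.05, as did 20.0% and 12.5% of all probe sets). Their log2 fold changes ran from -0.11 to 0.70 in Kelly, and from 0.15 to 0.77 in BE(2)-C, and averaging them gave 0.48 in BE(2)-C (limma adjusted p = 0.0414).

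HAND2, a basic helix-loop-helix factor of sympathetic precursors, read 13.01, 13.03 and 12.83 in Kelly with DMSO and 13.21, 13.11 and 12.97 with JQ1. In BE(2)-C it read 12.58, 12.86 and 12.68 with DMSO and 13.07, 13.06 and 12.95 with JQ1. The groups overlap in Kelly and do not in BE(2)-C, and neither log2 fold change passed (0.14, SE 0.14, limma adjusted p = 0.562 in Kelly; 0.32, SE 0.14, limma adjusted p = 0.295 in BE(2)-C). HAND2-AS1, the long non-coding RNA transcribed from the opposite strand beside HAND2, rose in BE(2)-C from 9.47 ± 0.113 to 10.81 ± 0.155 (SD, n = 3), by 1.34 (SE 0.21, limma adjusted p = 0.00279). Its value in Kelly was 0.01 (limma adjusted p = 0.986), and the difference between the lines, 1.33, did not pass (limma adjusted p = 0.0693).

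ISL1, a LIM homeodomain factor of sympathetic and motor neurons, read lower with JQ1 in BE(2)-C, at 9.81, 10.09 and 9.92 with DMSO and 9.40, 9.52 and 9.27 with JQ1, without overlap, but the log2 fold change of -0.55 (SE 0.18) did not pass (limma adjusted p = 0.131). In Kelly it read 10.83, 10.87 and 10.37 with DMSO and 10.73, 10.81 and 10.33 with JQ1, which overlap (-0.06, SE 0.18, limma adjusted p = 0.851). Replicate 3 was the lowest of both Kelly groups, and both arrays are among the 3 with the highest control signal. Without those 3 arrays, a choice made after seeing the data, ISL1 fell by 0.61 in BE(2)-C (limma adjusted p = 0.00839). It also passed there with quantile normalization (-0.57, limma adjusted p = 0.0216) and with the control signal as a covariate (-0.52, limma adjusted p = 0.0192).

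TFAP2B, an AP-2 family factor of the early sympathetic lineage, was the member that passed in both lines. It read 11.42, 11.42 and 11.63 on the Kelly arrays with DMSO and 10.27, 10.41 and 10.41 with JQ1. The BE(2)-C arrays read 11.13, 11.00 and 11.11 with DMSO and 10.21, 9.96 and 9.80 with JQ1. No JQ1 array reached the lowest DMSO array of its line. The log2 fold change was -1.12 in Kelly (SE 0.15, limma adjusted p = 0.000696) and -1.08 in BE(2)-C (SE 0.15, limma adjusted p = 0.00134), and the difference of 0.04 (SE 0.21) did not pass (limma adjusted p = 0.944). On its other probe sets that difference was 0.83 and 0.86 (limma adjusted p = 0.492 and 0.432), and averaging the 3 gave 0.58 (limma adjusted p = 0.42). For JQ1 these other probe sets gave -2.28 and -2.12 in Kelly and -1.45 and -1.26 in BE(2)-C. All 3 passed in each line in the fit of all probe sets, which called 4.35% of them in Kelly and 2.81% in BE(2)-C. The brightest probe set gave the smallest of the 3 changes, and averaging the 3 gave -1.84 in Kelly. The call held under all 22 alternatives in each line.

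**Figure D2:**
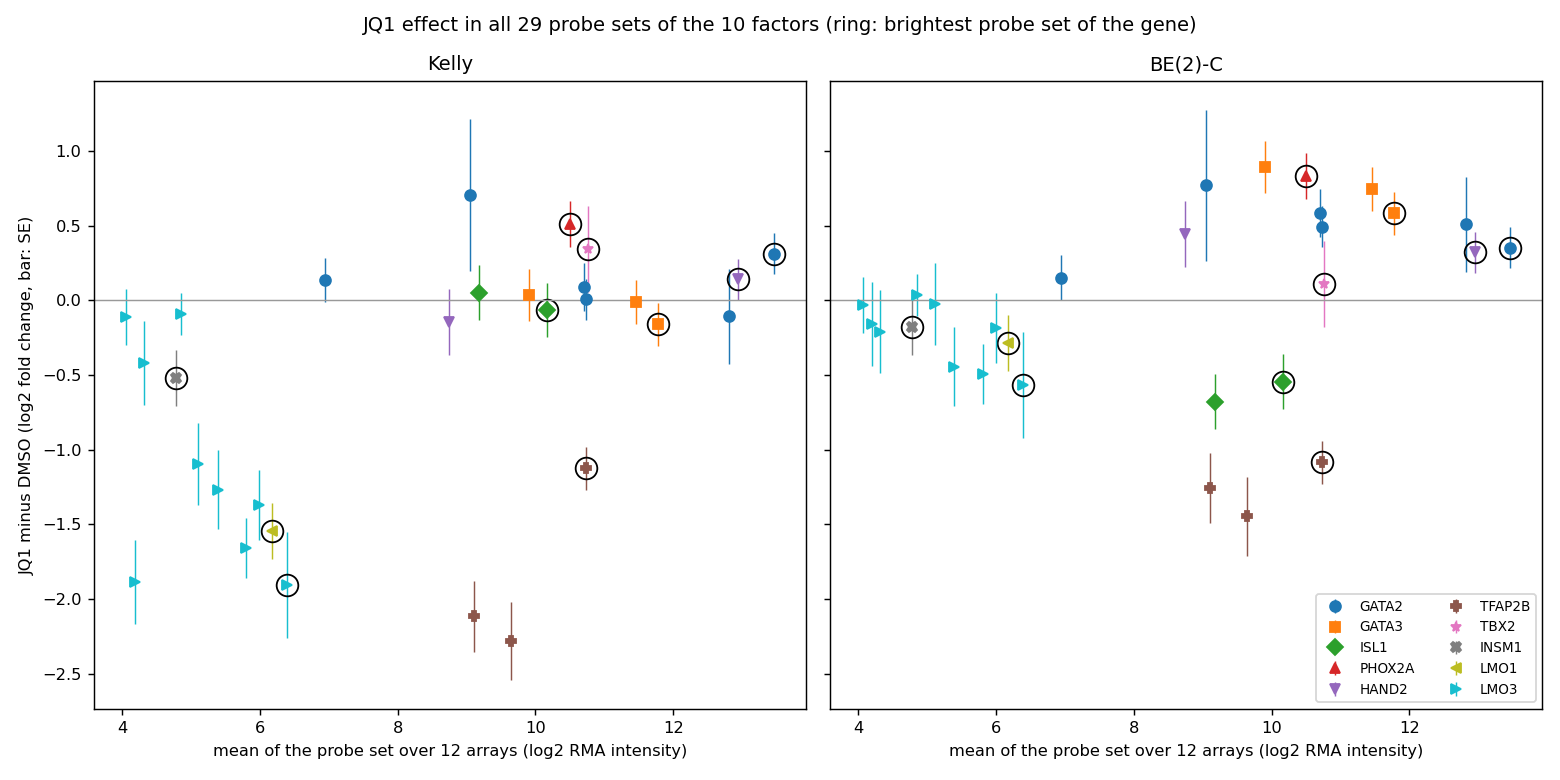
JQ1 effect (log2 fold change, vertical axis; bars are the SE) of the 29 probe sets against their mean over the 12 arrays (log2 RMA intensity, horizontal axis), Kelly on the left and BE(2)-C on the right. The brightest probe set of each gene is ringed. The 3 probe sets of TFAP2B lie below -1 in both panels, and those of LMO3 spread from -1.91 to -0.09 in Kelly.

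LMO1 and LMO3 encode LIM-only proteins, which bind no DNA themselves and bridge GATA and helix-loop-helix factors in larger complexes; LMO1 acts as an oncogene in neuroblastoma and in T-cell leukaemia. LMO1 read 7.83, 7.81 and 7.41 in Kelly with DMSO and 5.99, 5.98 and 6.46 with JQ1. In BE(2)-C it read 5.81, 5.53 and 5.39 with DMSO and 5.23, 5.20 and 5.43 with JQ1, near the array medians or below them. The Kelly groups do not overlap and the BE(2)-C groups do. LMO1 fell by 1.55 in Kelly (SE 0.19, limma adjusted p = 0.000396), and the value in BE(2)-C, -0.29 (SE 0.19), did not pass (limma adjusted p = 0.635). The difference between the lines was 1.26 (SE 0.27) with a limma adjusted p of 0.0634, and it passed under 7 of 20 alternatives. Among these are the fits without replicate 3 of Kelly with DMSO, without replicate 3 of Kelly with JQ1, without replicate 1 of BE(2)-C with DMSO, and without all 3 of these, the arrays of highest control signal, where it was 1.67 (limma adjusted p = 0.00118).

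LMO3 read 8.94, 8.69 and 7.49 in Kelly with DMSO and 6.99, 6.56 and 5.85 with JQ1. The lowest array of each of these groups was replicate 3, and both are arrays of high control signal. LMO3 in BE(2)-C read 5.43, 5.76 and 5.77 with DMSO and 4.97, 5.0 and 5.28 with JQ1, also without overlap. It fell by 1.91 in Kelly (SE 0.35, limma adjusted p = 0.00542), and the value of -0.57 in BE(2)-C (SE 0.35) did not pass (limma adjusted p = 0.571), but did without the 3 arrays of highest control signal (-0.68, limma adjusted p = 0.0182). The difference between the lines, 1.34 (SE 0.49), had a limma adjusted p of 0.344. It passed with the replicate number as a block (limma adjusted p = 0.0492) and without replicate 3 of Kelly with DMSO (1.78, limma adjusted p = 0.0437). Of its 9 probe sets 6 fell in Kelly, with log2 fold changes of -1.91 to -1.10, and 3 did not pass, at -0.09, -0.42 and -0.11. Those 3 had means of 4.06 to 4.86 over the arrays, below the array medians, a range that also holds 1 that fell, at 4.19. None passed in BE(2)-C with limma, where 1 had an unadjusted p under 0.05. Averaging the 9 probe sets gave -1.09 in Kelly (limma adjusted p = 0.00225), and the fit without the 3 arrays of highest control signal -2.04.

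Across all 10 genes the test of the difference between the lines called none at the threshold with limma, which called 0.557% of all genes. At an unadjusted p under 0.05 it was 3 of 10, GATA3, LMO1 and LMO3, against 11.3% of all genes. In BE(2)-C with DMSO the means of LMO1 and LMO3, 5.57 and 5.65, already lay below the array medians. With an offset of 16 before log2 their line differences were 1.15 (limma adjusted p = 0.0393) and 1.32 (limma adjusted p = 0.305). Whether a floor limits their fall in BE(2)-C was not tested.

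The sequences before the start sites of the 3 genes that fell in Kelly are shown because these genes moved together there. They are the 250 bases before the RefSeq start on GRCh38.p14, 5′ to 3′ on the strand of the gene, with the letters TAATTA, the core bound by many homeodomain factors, in capitals. LMO1 lies at chr11:8268788-8269037 on the minus strand, LMO3 (the most upstream of its 5 starts) at chr12:16608215-16608464 on the minus strand, and TFAP2B at chr6:50818621-50818870 on the plus strand.
LMO1: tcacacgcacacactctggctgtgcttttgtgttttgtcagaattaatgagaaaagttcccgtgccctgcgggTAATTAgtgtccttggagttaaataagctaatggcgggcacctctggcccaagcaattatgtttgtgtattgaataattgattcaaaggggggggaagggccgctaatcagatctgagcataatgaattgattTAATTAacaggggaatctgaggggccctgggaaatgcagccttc
LMO3: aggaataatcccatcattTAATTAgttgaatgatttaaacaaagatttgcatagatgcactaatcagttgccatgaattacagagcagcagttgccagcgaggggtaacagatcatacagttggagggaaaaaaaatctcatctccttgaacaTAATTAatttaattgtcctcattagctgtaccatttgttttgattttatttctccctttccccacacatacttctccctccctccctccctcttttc
TFAP2B: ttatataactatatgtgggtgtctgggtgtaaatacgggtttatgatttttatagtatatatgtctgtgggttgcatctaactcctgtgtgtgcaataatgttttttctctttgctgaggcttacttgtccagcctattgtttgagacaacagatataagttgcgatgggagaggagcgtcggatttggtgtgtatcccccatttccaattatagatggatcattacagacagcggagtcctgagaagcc
The windows of LMO1 and LMO3 each held 2 matches to TAATTA and that of TFAP2B held 0. Over both strands TAATTA was found in 4.35% of 35116 RefSeq windows of that length, and 2 or more matches in 0.353%. These windows were not matched for base composition. The GC content was 45.6% in the LMO1 window, 37.6% in that of LMO3 and 40.8% in that of TFAP2B. RefSeq entries matched 8 of the 10 genes, with 18 windows, and 3 windows held TAATTA, the third being that of HAND2 with 1 match. The HAND2 window also held 3 matches to GATAA, the core bound by zinc finger factors of that family, where 0.675% of all windows held 3 or more. It held 1 match to CANNTG, the E-box. E-boxes occurred in 61.8% of all windows, GATAA in 20.4% and the AP-2 core GCCNNNGGC in 19.8%; a base could count in more than 1 motif. The first LMO3 window held 4 E-boxes, and those of LMO1 and TFAP2B held 0. A match is a run of letters and shows no binding. The printed windows were chosen by the fall of their genes and the HAND2 window is 1 of 18 searched, so the shares show no enrichment, which was not tested.

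TBX2, a T-box repressor, and INSM1, a zinc finger factor of neuroendocrine cells, did not pass in either line. TBX2 read 10.78, 10.36 and 11.25 in Kelly with DMSO and 11.09, 11.25 and 11.09 with JQ1. In BE(2)-C it read 11.17, 10.17 and 10.14 with DMSO and 10.58, 10.35 and 10.88 with JQ1. The treatments overlap in both lines, and the highest DMSO array of each line is the array of its group with the highest control signal, at 13.26 in Kelly and 12.92 in BE(2)-C. The log2 fold changes were 0.35 (SE 0.28, limma adjusted p = 0.471) and 0.11 (SE 0.28, limma adjusted p = 1.0), and without the 3 arrays of highest control signal the value in Kelly passed (0.60, limma adjusted p = 0.0456) and that in BE(2)-C, 0.45, did not (limma adjusted p = 0.134). With the control signal as a covariate neither passed, at 0.037 in Kelly (limma adjusted p = 0.910) and 0.046 in BE(2)-C (limma adjusted p = 0.911).

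INSM1 was dim, with group means of 4.07 to 5.67, all below the array medians. It read 5.59, 6.04 and 5.39 in Kelly with DMSO and 5.0, 5.48 and 4.98 with JQ1. These groups overlap, but each JQ1 array read lower than the DMSO array of the same replicate number. The values were, in BE(2)-C, 4.17, 4.24 and 4.32 with DMSO and 3.97, 4.13 and 4.10 with JQ1. The BE(2)-C groups do not overlap. The log2 fold changes were -0.52 (SE 0.19, limma adjusted p = 0.131) and -0.18 (SE 0.19, limma adjusted p = 0.933), and without replicate 3 of Kelly with DMSO the value in Kelly passed (-0.66, limma adjusted p = 0.0483). With the replicate number as a block its limma adjusted p was 0.0668.

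**Figure D3:**
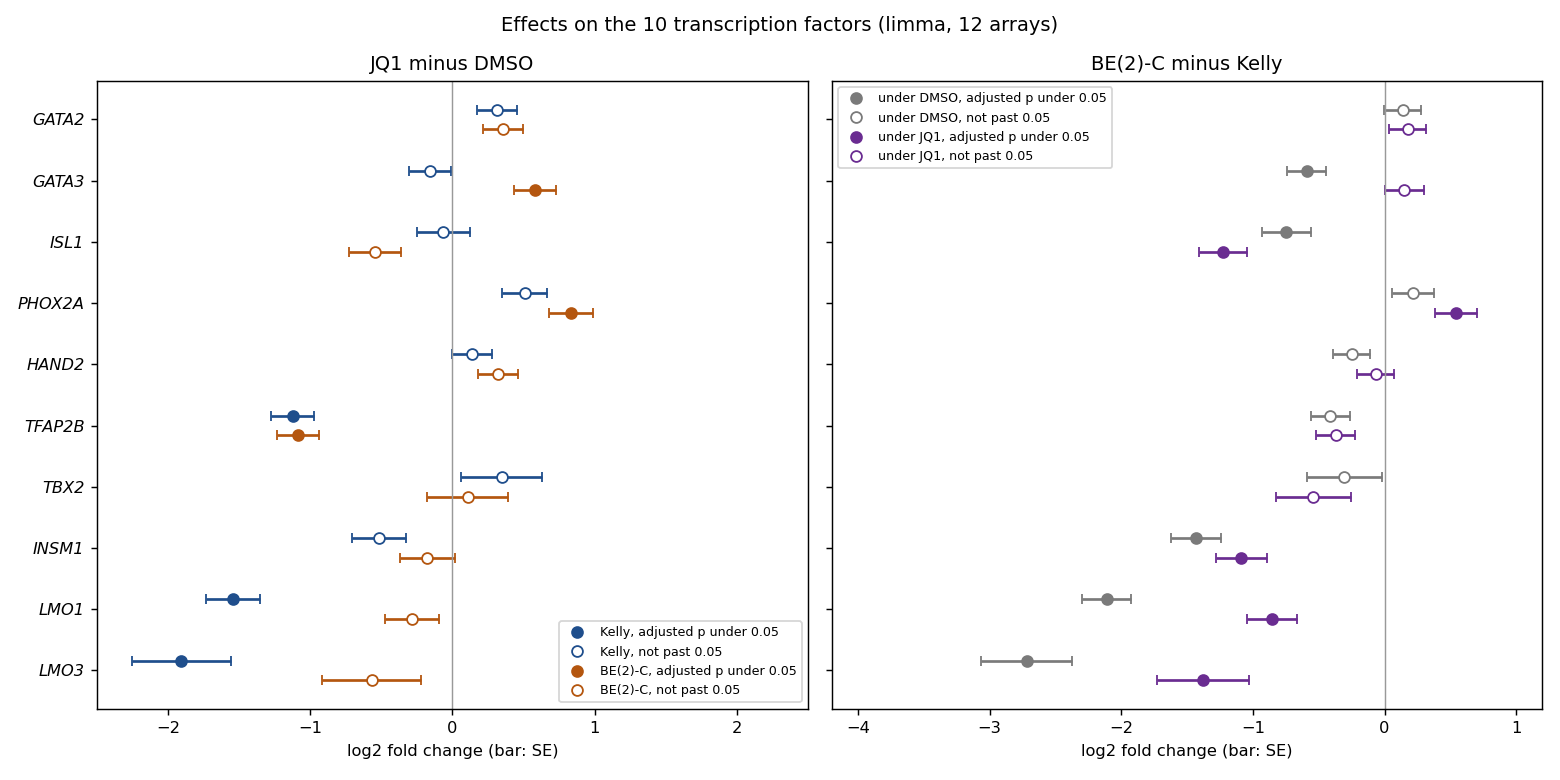
Log2 fold changes of the 10 genes (horizontal axis; bars are the SE from limma). The left panel gives JQ1 minus DMSO in each line and the right panel BE(2)-C minus Kelly under each treatment; filled points have an adjusted p under 0.05. TFAP2B is filled for both lines near -1.1, and LMO1 and LMO3 have the lowest values in Kelly, -1.55 and -1.91.

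The lines also differed in some of these factors with DMSO alone. Under DMSO 5 of the 10 genes were lower in BE(2)-C than in Kelly and none passed as higher, where limma called 15.1% of all genes, 7.89% lower and 7.2% higher. The arrays of the lines did not overlap in 7 genes, 6 of them lower in BE(2)-C, against 25.7% of all genes. The log2 fold change was -2.72 for LMO3 (SE 0.35, limma adjusted p = 0.000124), -2.11 for LMO1 (SE 0.19, limma adjusted p = 5.77e-06) and -1.43 for INSM1 (SE 0.19, limma adjusted p = 0.000178). The BE(2)-C means of these 3 genes lay below the array medians and the files give no call of detection, so the sizes depend on the scale: with an offset of 16 before log2 they were -2.39, -1.80 and -0.94, and all 3 passed. ISL1 was 1.68-fold lower (limma adjusted p = 0.0143) and GATA3 1.51-fold lower (limma adjusted p = 0.0149); without replicate 1 or without replicate 2 of Kelly with DMSO neither passed, with limma adjusted p-values of up to 0.0655 for GATA3 and 0.0696 for ISL1, and GATA3 did not pass without replicate 1 of BE(2)-C with DMSO either. Neither passed in a fit of only the 6 arrays compared (0.0766 for GATA3 and 0.0517 for ISL1, limma adjusted p). Averaging its probe sets gave -1.60 for LMO3.

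Under JQ1 4 of the 10 were lower in BE(2)-C and 1 was higher, where limma called 23.3% of all genes, 10.4% lower and 12.9% higher. The arrays of the lines did not overlap in 9 of the 10, against 49.9% of all genes. The log2 fold change was -1.23 for ISL1 (SE 0.18, limma adjusted p = 0.000413), -1.09 for INSM1, -0.85 for LMO1 and -1.38 for LMO3, and PHOX2A was higher by 0.54 (SE 0.16, limma adjusted p = 0.0255). The PHOX2A call was lost in 6 alternatives, among them the removal of replicate 2 or 3 of Kelly with JQ1 or replicate 2 or 3 of BE(2)-C with JQ1, with limma adjusted p-values of up to 0.117. GATA3, which read lower in BE(2)-C under DMSO, was at 11.96 ± 0.0896 in BE(2)-C and 11.81 ± 0.0527 in Kelly under JQ1 (SD, n = 3; limma adjusted p = 0.463). These comparisons share arrays with the JQ1 effects above. An offset of 16 gave -0.66 for INSM1, and averaging its probe sets gave -0.74 for LMO3. The fit of all probe sets called 9094 of 44988 here. In it 2 of the 6 probe sets of GATA2 were higher in BE(2)-C, by 0.49 and 0.50 (limma adjusted p = 0.027 and 0.045). The brightest did not pass (0.18, limma adjusted p = 0.357), and the 6 ran from -0.25 to 0.88.

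Ordering the 4 groups by their mean shows different patterns. The lowest 2 levels of LMO1, in BE(2)-C, did not differ beyond their spread (5.57 ± 0.214 with DMSO, 5.29 ± 0.125 with JQ1), while Kelly with JQ1 at 6.14 ± 0.275 lay above BE(2)-C with DMSO (limma adjusted p = 0.0468) and Kelly with DMSO at 7.69 ± 0.239 lay above that. For LMO3 Kelly with DMSO at 8.37 ± 0.775 stood apart, and Kelly with JQ1 at 6.47 ± 0.576 and BE(2)-C with DMSO at 5.65 ± 0.196 did not overlap but did not pass the test (limma adjusted p = 0.111). TFAP2B was ordered by treatment: both DMSO groups, 11.49 ± 0.118 in Kelly and 11.08 ± 0.0676 in BE(2)-C, did not pass the test against each other (limma adjusted p = 0.0897), and BE(2)-C with DMSO lay above Kelly with JQ1 at 10.36 ± 0.0789 (limma adjusted p = 0.00364). ISL1 was ordered by line, with both Kelly groups at 10.69 ± 0.279 and 10.62 ± 0.257 and BE(2)-C with DMSO below them at 9.94 ± 0.142 (limma adjusted p = 0.0171 against Kelly with JQ1). PHOX2A was highest in BE(2)-C with JQ1 at 11.11 ± 0.121, above Kelly with JQ1 at 10.56 ± 0.249, and the neighbours below, BE(2)-C with DMSO at 10.27 ± 0.0936 and Kelly with DMSO at 10.05 ± 0.0837, did not pass (limma adjusted p = 0.517). Among the levels of GATA2 the highest, BE(2)-C with JQ1 at 13.72 ± 0.043, differed from the lowest, Kelly with DMSO at 13.23 ± 0.0737 (limma adjusted p = 0.0249), and no neighbours passed; for HAND2 and TBX2 no pair of groups passed.

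**Figure D4:**
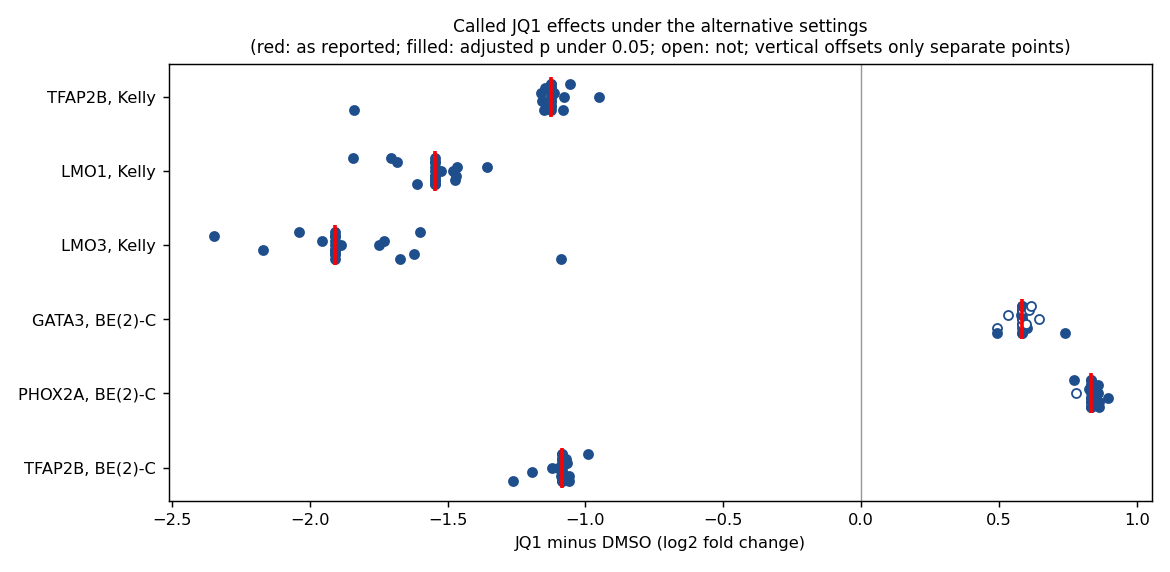
JQ1 effect (log2 fold change, horizontal axis) of the 6 calls within a line under the reported setting (red line) and the alternative settings (points, filled where the adjusted p is under 0.05; the vertical position only separates points). TFAP2B, LMO1 and LMO3 in Kelly and TFAP2B in BE(2)-C are filled throughout, and GATA3 in BE(2)-C is open in 12 alternatives.

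Other genes of the adrenergic circuit were taken from a list. Of 24 measured transcription factors and cofactors 3 rose and 4 fell in Kelly, and 2 rose and 1 fell in BE(2)-C, with medians of 0.03 and -0.0017 beside the all-gene medians given above. LDB2, which holds LIM-only proteins in their complexes, fell in both lines, with log2 fold changes of -1.34 (limma adjusted p = 0.00728) in Kelly and -1.41 (limma adjusted p = 0.00759) in BE(2)-C. In Kelly KLF7, a neuronal zinc finger factor, fell (-1.65), EYA1, a cofactor of homeodomain proteins, fell (-1.52), and SOX11, an SRY-box factor of neural precursors, rose (1.26), with limma adjusted p-values of 0.00128, 0.0413 and 0.00134. INSM2, a relative of INSM1, rose in both lines, by 0.67 in Kelly (limma adjusted p = 0.0329) and 0.79 in BE(2)-C (limma adjusted p = 0.0182). LMO4, a LIM-only relative of LMO1 and LMO3 that is named after its values were seen, rose by 1.23 in Kelly (limma adjusted p = 0.000476), and its value in BE(2)-C was 0.34 (limma adjusted p = 0.304). KLF7 was the only one of the 24 whose difference between the lines passed, 2.02 (limma adjusted p = 0.0188).

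The genes that the circuit serves changed in both directions. Of 19 measured noradrenergic effector genes 3 rose and 8 fell in Kelly and 5 rose and 6 fell in BE(2)-C, with medians of -0.19 and 0.03. In Kelly the falls with the largest log2 fold changes were those of MAOA, a monoamine oxidase (-3.33), SLC18A1, a vesicular monoamine transporter (-2.11), TH, the rate-limiting enzyme of catecholamine synthesis (-1.90), and DDC, the decarboxylase after it (-1.68), with limma adjusted p-values from 2.35e-05 to 0.00182. The 3 that rose in Kelly were SCG2 (1.65), GCH1 (1.53) and VGF, a secreted neuropeptide precursor (0.93), with limma adjusted p-values from 0.000144 to 0.0084. In BE(2)-C SLC18A1 (-2.16), DBH, which makes noradrenaline (-1.60), and TH (-1.48) fell, and VGF (1.28) rose, with limma adjusted p-values from 0.00147 to 0.00289. GCH1 also rose there (0.88, limma adjusted p = 0.00828). The difference between the lines passed for MAOA (3.36) and for RET, a receptor tyrosine kinase (1.99), with limma adjusted p-values of 0.00138 and 0.00787. Of 19 measured mesenchymal neuroblastoma factors 1 rose and 1 fell in Kelly, ELK4 (1.07) and SMAD3 (-1.17), and none passed in BE(2)-C with limma, where 2 of the 19 had an unadjusted p under 0.05 against 15.3% of all genes. The largest values there were those of JUN (0.98, limma adjusted p = 0.112) and FOSL2 (0.83, limma adjusted p = 0.415), both AP-1 subunits.

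The genes most like each member in pattern were taken by Pearson r of the log2 values over the 12 arrays, among 8138 genes with a mean of at least 6 and a range of at least 1. The arrays fall into 4 groups, so r follows the group means and carries no p. For TFAP2B they were ERG28 (0.959) and ENTREP3 (0.958), for LMO1 SLC38A5 (0.981) and CARTPT (0.980), and for LMO3 PDLIM1 (0.982) and TEAD2 (0.981). For PHOX2A they were PEX39 and CYTH2 (0.978 each), for GATA3 YPEL5 (0.959) and CLIP3 (0.953), and for ISL1 PLEKHO1 (0.985) and UBQLN4 (0.982). CARTPT went from 8.95 in Kelly with DMSO to 5.72 with JQ1 and read 4.82 and 4.58 in BE(2)-C, the order of the groups seen for LMO1. For GATA2 they were STRADA (0.927) and SLC38A2 (0.924), for HAND2 LINC00526 (0.960) and MTMR3 (0.956), for TBX2 PLEKHM2 and ARRDC1-AS1 (0.975 each), and for INSM1 BDNF and PHACTR3 (0.977 each).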

How the data were processed

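The 12 arrays were grouped by line and treatment as their titles state. RMA made the values, per the submitters' processing notes, version not given in the sources used here. What the authors deposited is linear intensity, and log2 was taken here with no offset, since none was at or below 0. In the platform annotation 44988 of 49395 probe sets named 1 gene, 1832 several and 2473 none, and 102 were controls; the GRCh38.p14 gene table matched 99.94% of those naming 1. A gene was read from its brightest probe set. limma 3.58.1 in R 4.3.3 fitted 4 group means over all genes, with two-sided p-values adjusted by Benjamini-Hochberg over all of them and a threshold of 0.05; it was tested on simulated data. The genes examined and the lists were chosen with earlier results of these data known. Named beside them were up to 4 passing genes of each list in each comparison and the 2 genes most like each member. LMO4 and the effector genes that rose in Kelly were named after their values were seen. Same-numbered arrays of DMSO and JQ1 had residual correlations across genes of 0.434, 0.228 and 0.515 in Kelly, which pairs them by the rule used, and of -0.0706, 0.527 and -0.744 in BE(2)-C, which does not; the design has no block. Alternatives changed the probe set summary, features tested, prior, normalization, offset, filter, arrays in the fit, block and control-signal covariate, and left out each array. Levels of different probe sets were not compared. Some listed genes were not analysed here.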

Additional observations from a re-analysis of the deposited data

How the results depend on the processing

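The 60 effects of the 10 genes were recomputed under up to 22 alternatives, 1282 values in all: 1193 kept direction and side of the threshold, 27 lost the call, 43 gained it and 19 changed direction, none of them a called effect. The causes were not tested. The number of the 10 called in Kelly (3 as reported) was 1 with dim genes left out, which drops LMO1, LMO3 and INSM1, and 6 without the 3 arrays of highest control signal, an alternative chosen after seeing the data. In BE(2)-C (3) it was 5 without those arrays, and 1 to 3 when 1 array was left out, the lowest without replicate 2 of BE(2)-C with DMSO. Averaged over the lines (4) it was 7 with the control signal in the model (below, the covariate) and 7 without those arrays. For the line difference (0) it was 1 with quantile normalization, with an offset of 16 and with the replicate block, 2 with the covariate, 2 without those arrays, and 0 to 2 when 1 array was left out, among them replicate 3 of Kelly with DMSO, replicate 3 of Kelly with JQ1 and replicate 1 of BE(2)-C with DMSO. Between the lines it was 2 under DMSO and 2 under JQ1 with dim genes left out (5 in each as reported), 3 under DMSO with only the 6 arrays compared, and 3 to 5 under DMSO when 1 array was left out, the lowest without replicate 1 or 2 of Kelly with DMSO. The replicate block took the GATA3 call in BE(2)-C (adjusted p = 0.0764), its call between the lines under DMSO (0.0593) and that of PHOX2A under JQ1 (0.0782), gave the LMO3 line difference (0.0492) and changed no other call.

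Effects that changed direction under an alternative had not passed as reported. ISL1 in Kelly was 0.10 with quantile normalization, 0.068 with the covariate and -0.23 to 0.082 when 1 array was left out. HAND2 with the mean of its probe sets was -0.0045 in Kelly and 0.087 between the lines under JQ1, and TFAP2B 0.22 in the latter. TBX2 in BE(2)-C was -0.069 to 0.45 when 1 array was left out, and its line difference was 0.0092 with the covariate and -0.46 to 0.10 when 1 array was left out. The line difference of GATA2 was -0.016 with quantile normalization and -0.028 to 0.15 when 1 array was left out, and that of TFAP2B -0.15 and -0.071 to 0.13.

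Genes called over the whole array went in Kelly from 1178 to 584 with only the 6 arrays compared, 2293 with the covariate and 4503 without the 3 arrays. In BE(2)-C they went from 850 to 2752 and 2565 with the last 2 of these. On average they went from 2005 to 3683 and 5816, and for the difference from 101 to 686 and 457. With dim genes left out 9066 genes were tested instead of 18132, and 52 were called for the difference. Between the lines they went from 2735 to 4797 with the covariate under DMSO. Under JQ1 they went from 4229 to 6577 without the 3 arrays. Testing all 44988 probe sets called 1958 in Kelly, 3388 on average, 5516 under DMSO and 9094 under JQ1. In Kelly that was 4.35% of the probe sets, where 6.5% of the genes were called. When 1 array was left out, the count ran from 603 to 2168 in Kelly, without replicate 1 and without replicate 3 of Kelly with DMSO, and was 680 and 750 without replicate 2 of Kelly with DMSO or JQ1. In BE(2)-C it was 322, 386 and 471 without replicates 1, 2 and 3 of BE(2)-C with JQ1 and 408 and 539 without replicates 2 and 3 with DMSO. For the difference it ran from 39 to 212, without replicate 1 of BE(2)-C with JQ1 and replicate 3 of Kelly with DMSO, and was 46 to 65 without replicate 1 or 2 of Kelly with DMSO, replicate 2 of Kelly with JQ1, replicate 2 or 3 of BE(2)-C with DMSO or replicate 2 or 3 of BE(2)-C with JQ1. Under JQ1 it was 2754 and 2556 without replicates 1 and 2 of BE(2)-C.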
